A study of Mus musculus with 12 samples.

Results

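The chemokine ligands of Cxcr2 were followed in neutrophils of mammary tumors and bone marrow (BM). The 5 members were Cxcl1, Cxcl2, Cxcl3, Cxcl5 and Ppbp, the gene for Cxcl7. They were found by matching the Ensembl identifiers of the count files to these symbols, and each symbol had 1 of the 55335 gene rows. RNA was sequenced from 12 libraries in 3 groups of 4 mice, all FVB, 10 weeks old and kept in a specific and opportunistic pathogen free (SOPF) facility. Tumor associated neutrophils (TANs) came from mice with the PyMT transgene, which drives mammary tumors by expressing the polyoma middle T oncogene in the mammary epithelium, and from PyMT-Cxcr2-/- mice, which carry the same transgene and lack Cxcr2 in every cell. BM neutrophils came from wild-type (WT) mice without the transgene. All were sorted as CD45+ CD11b+ Ly6G+ F4/80- cells after CD11b enrichment. The tumors, taken from mammary glands 4 and 9, were minced and digested with enzymes, while BM cells were spun out of the femurs and tibias, so tissue, tumor and isolation cannot be told apart in a comparison of TANs with BM neutrophils. No BM neutrophils of Cxcr2-/- mice were among the samples.

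Cxcr2 is a G protein-coupled receptor through which neutrophils sense a gradient of CXC chemokines that carry a glutamate-leucine-arginine (ELR) motif before the first cysteine. Neutrophils leave the BM and enter inflamed tissue with its help, and they also secrete some of these ligands themselves, which can attract further neutrophils. Cxcl1, Cxcl2 and Cxcl3 are close relatives whose genes are induced by NF-kappaB after interleukin-1, tumor necrosis factor or Toll-like receptor signals. Cxcl5 is made mainly by epithelial and stromal cells, and Ppbp is made by megakaryocytes and stored in platelet granules.

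The 5 genes lie on the + strand of chromosome 5 within 1 cluster. In GRCm38 coordinates of GENCODE M21, Cxcl5 spans 90759360 to 90761624, Ppbp 90768518 to 90770063, Cxcl3 90786103 to 90789600, Cxcl1 90891241 to 90893115 and Cxcl2 90903871 to 90905938. All 5 are protein-coding, and none overlaps another annotated gene. The promoters are shown because 3 members were high in TANs and 1 was low. A window from 250 bases before to 50 bases after the gene start was taken from the RefSeq promoter table of GRCm38.p6, which is the C57BL/6J reference and not FVB sequence, and held 4 of the 5 members. Capitals mark the stretches of at least 11 bases that the Cxcl1, Cxcl2 and Cxcl3 windows share, searched on both strands.
Cxcl1, chr5:90890995-90891294, + strand: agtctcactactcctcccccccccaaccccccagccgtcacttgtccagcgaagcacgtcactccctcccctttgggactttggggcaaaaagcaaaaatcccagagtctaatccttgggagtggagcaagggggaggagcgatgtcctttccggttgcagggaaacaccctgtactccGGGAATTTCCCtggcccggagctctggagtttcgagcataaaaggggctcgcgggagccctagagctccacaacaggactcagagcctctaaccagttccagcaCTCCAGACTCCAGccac
Cxcl2, chr5:90903649-90903948, + strand: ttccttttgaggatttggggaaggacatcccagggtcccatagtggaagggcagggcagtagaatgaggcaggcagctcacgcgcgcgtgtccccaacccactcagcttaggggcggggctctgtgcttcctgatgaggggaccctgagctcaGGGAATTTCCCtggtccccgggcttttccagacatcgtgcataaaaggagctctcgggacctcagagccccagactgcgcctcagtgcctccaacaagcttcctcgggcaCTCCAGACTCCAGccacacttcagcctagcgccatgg
Cxcl3, chr5:90785851-90786150, + strand: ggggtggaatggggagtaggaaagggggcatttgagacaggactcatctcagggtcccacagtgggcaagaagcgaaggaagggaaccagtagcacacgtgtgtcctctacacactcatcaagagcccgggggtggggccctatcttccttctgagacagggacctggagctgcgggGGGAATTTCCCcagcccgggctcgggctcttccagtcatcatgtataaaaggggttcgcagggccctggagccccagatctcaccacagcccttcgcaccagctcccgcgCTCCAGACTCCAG
Ppbp, chr5:90768268-90768567, + strand: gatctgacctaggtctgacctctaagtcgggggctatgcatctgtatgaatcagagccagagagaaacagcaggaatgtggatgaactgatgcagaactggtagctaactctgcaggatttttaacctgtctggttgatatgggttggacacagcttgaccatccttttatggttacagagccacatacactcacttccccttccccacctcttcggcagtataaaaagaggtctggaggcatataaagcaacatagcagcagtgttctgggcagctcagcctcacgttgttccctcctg

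The 3 inducible ligands shared 2 such stretches, which were sought as common to their windows. The Ppbp window held neither, nor did those of the cluster genes Pf4 and Cxcl15, of which Pf4 was also higher in both TANs. The first, GGGAATTTCCC, has the form of an NF-kappaB site and lay before the gene start, from base -71 of Cxcl1, -97 of Cxcl2 and -73 of Cxcl3, with the RefSeq start as base 0. The RefSeq starts differ from the GENCODE starts given above, most for Cxcl2, so these positions are not to be compared closely between the genes. The second, CTCCAGACTCCAG, lay after the start. Of all 32851 promoter windows of 300 bases in the table, 14 (0.0426%) held the first stretch on either strand and 4 (0.0122%) the second, these 3 windows included. Nearly all windows lacked both stretches, so their absence does not set Ppbp apart. These matches describe the letters of the windows and not binding.

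The libraries held between 25032704 and 51351569 counts assigned to genes, and 3 counts, taken as the floor below which a level is not told from 0, corresponded to 0.0565 to 0.102 CPM. Levels in CPM are counts divided by the library size, which was adjusted with TMM factors. Where 3 values follow each other, they are for PyMT TANs, PyMT-Cxcr2-/- TANs and BM neutrophils, in this order. Cxcr2 itself was at 1196 ± 224, 9.38 ± 0.576 and 2035 ± 195 CPM (SD, n = 4), so each library matched its label for the Cxcr2 genotype. The PyMT-Cxcr2-/- libraries still held 379 to 485 Cxcr2 counts each, and the origin of these counts was not tested. The neutrophil markers summed to 10100 to 15700, 16700 to 27100 and 72600 to 95100 CPM. Each of the 10 had counts in at least 1 library of every group. By the thresholds given below, 9 of 10 were lower in both TANs than in BM (median log2 fold change -3.71 and -2.21), beside 23.2% and 25.1% of all genes. Between the TANs, 5 of 9 tested were higher without Cxcr2 and 1, Cxcr2 itself, was lower, beside 1.38% and 0.596% of all genes. Most markers tested of macrophages, mammary epithelium and fibroblasts were higher in PyMT TANs than in BM (11 of 12, 8 of 8 and 4 of 5) and in PyMT-Cxcr2-/- TANs (11 of 12, 8 of 8 and 6 of 6), and the monocyte gene Ly6c2 was lower in both. Over all genes tested, 30.1% and 34.4% were higher by the thresholds given below. The 12 macrophage and monocyte markers summed to 2280 to 5490 CPM, 2620 to 5210 CPM and 925 to 1220 CPM, and Adgre1, which encodes the F4/80 antigen excluded in the sort, was at 68.6 to 192 CPM, 76.9 to 142 CPM and 8.66 to 12.1 CPM. The 11 mammary epithelial markers summed to 51.0 to 487 CPM and 90.1 to 350 CPM in the TANs and to at most 0.516 CPM in BM neutrophils, where 7 of them were at 0. The 8 fibroblast markers summed to 7.12 to 18.4, 4.73 to 42.8 and 0.841 to 2.44 CPM, and the 8 endothelial markers to 26.1 to 45.7, 23.8 to 28.4 and 16.4 to 24.5 CPM.

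Cxcl1, Cxcl2 and Cxcl3 were higher in TANs of both genotypes than in BM neutrophils, whereas Ppbp was lower and Cxcl5 was barely detected. The question of this comparison was how tumor neutrophils differ from BM neutrophils. A gene was called where edgeR's quasi-likelihood test gave an adjusted p below 0.05 and the groups differed at least 1.5-fold. In PyMT TANs, 3 members were called higher and 1 lower, while 30.1% of all 17153 genes tested were called higher and 23.2% lower (53.3% in either direction). All 4 had values that did not overlap between the groups, as did 58.3% of all genes tested (28.7% with the TANs higher). In PyMT-Cxcr2-/- TANs, the counts were also 3 higher and 1 lower, against 34.4% and 25.1% of 17732 genes (59.5% in either direction), and again none of the 4 overlapped, as held for 65.9% of genes (32.2% with the TANs higher). Both comparisons use the same 4 WT BM libraries. Many genes differed between TANs and BM, so passing the thresholds sets these ligands apart little, and the sizes of their changes are given gene by gene. In bulk libraries, fewer cells that express a gene and less RNA per cell cannot be told apart.

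Cxcl2, a neutrophil chemoattractant also known as MIP-2, was the most abundant member. Its level in the 4 PyMT TAN libraries was 3789, 2383, 3204 and 3239.5 CPM. Those of the PyMT-Cxcr2-/- TANs were 2751, 2088, 3079 and 3357 CPM, and those of the BM neutrophils 108, 222, 207 and 214 CPM. Every TAN library was above every BM library, the lowest BM value stood apart from the other three, and the TAN groups overlapped. Cxcl2 was 17.6-fold higher in PyMT TANs than in BM neutrophils (log2 fold change 4.14, SE 0.253, 95% interval 3.58 to 4.69, adjusted p = 2.6e-07, edgeR). It was 16.4-fold higher in PyMT-Cxcr2-/- TANs (log2 fold change 4.04, SE 0.239, 95% interval 3.52 to 4.55, adjusted p = 1.6e-08, edgeR). Sequence shared with Cxcl3 touched 58 of 1967 100-base windows (2.95%) of the longest annotated Cxcl2 transcript. That transcript is not the coding one, from which no windows were taken.

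Cxcl1, or KC, is the ligand most often used as the mouse counterpart of human interleukin-8. Its level was 41.8, 25.0, 47.3 and 73.6 CPM in the PyMT TANs, and 33.9, 16.7, 25.5 and 26.2 CPM in the TANs without Cxcr2. In the BM neutrophils it was 0.180, 0.929, 0.745 and 0.280 CPM, from 6 to 30 counts. The TAN and BM values did not overlap and lay more than an order of magnitude apart. Cxcl1 showed the largest fold of the 4 members tested, 92.3-fold in PyMT TANs (log2 fold change 6.53, SE 0.512, 95% interval 5.40 to 7.65, adjusted p = 1.4e-06, edgeR), which placed it at rank 395 of 17153 from the highest log2 fold change. In PyMT-Cxcr2-/- TANs it was 52.6-fold higher (log2 fold change 5.72, SE 0.395, 95% interval 4.86 to 6.58, adjusted p = 1.1e-07, edgeR) and at rank 723 of 17732. No 100-base window of its longest annotated transcript, which retains an intron, occurred in another gene. Windows were not taken from its coding transcript.

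Cxcl3, the third of the inducible ligands, was measured at 152, 57.0, 47.3 and 72.4 CPM in the PyMT TANs. The PyMT-Cxcr2-/- TANs held 67.0, 38.0, 37.7 and 43.2 CPM, and the BM neutrophils 1.68, 4.58, 2.47 and 2.94 CPM. PyMT TAN mouse 1 was above the other three of its group, and all TAN libraries were above all BM libraries. Cxcl3 was 29.5-fold higher in PyMT TANs (log2 fold change 4.88, SE 0.430, 95% interval 3.93 to 5.83, adjusted p = 3.3e-06, edgeR) and 17.5-fold higher in PyMT-Cxcr2-/- TANs (log2 fold change 4.13, SE 0.294, 95% interval 3.49 to 4.77, adjusted p = 1.7e-07, edgeR) than in BM neutrophils.

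**Figure D1:**
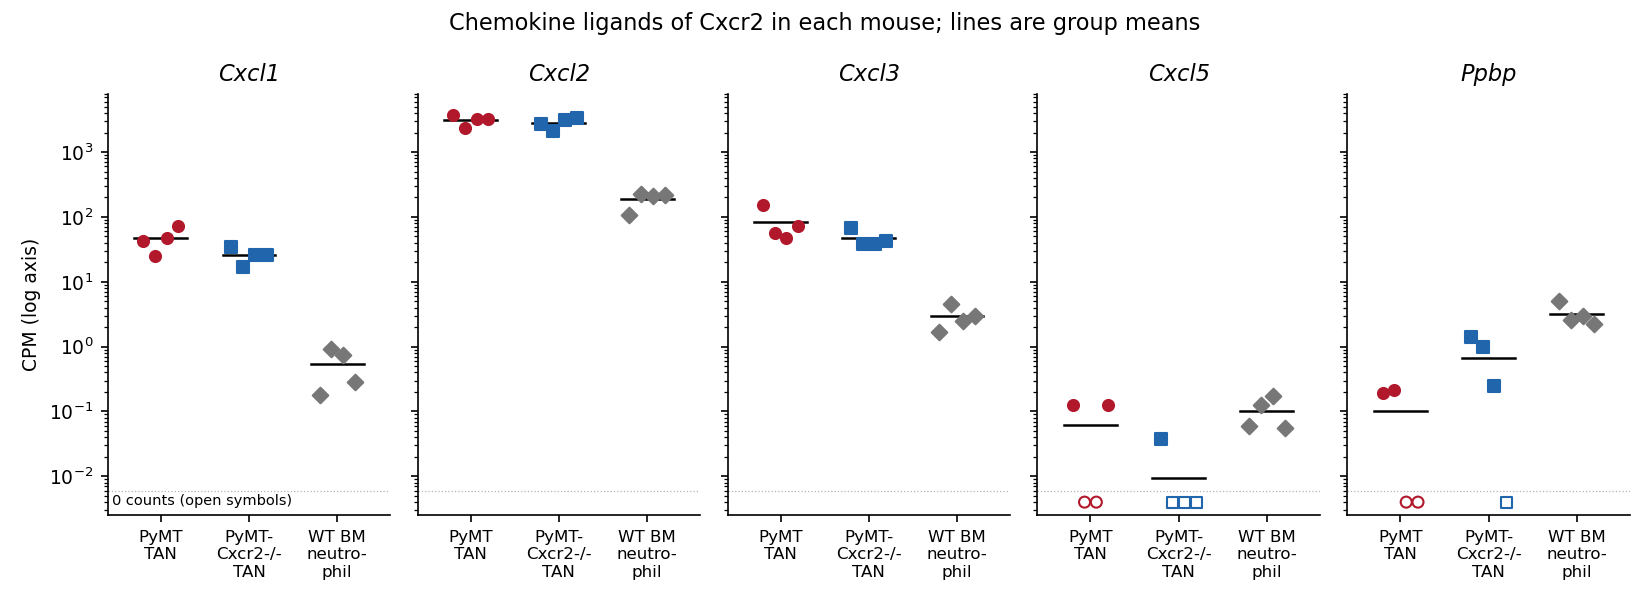
CPM of the 5 ligands on a log axis, 1 symbol per mouse (circles PyMT TAN, squares PyMT-Cxcr2-/- TAN, diamonds WT BM neutrophil), with lines at the group means and open symbols below the dotted line for libraries with 0 counts. Cxcl2 lies between 2088 and 3789 CPM in the TANs and between 108 and 222 CPM in BM, Cxcl1 and Cxcl3 are also higher in every TAN library than in any BM library, and Ppbp is the reverse.

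Sums of other cells' markers are given beside the ligands for each mouse. The macrophage and monocyte markers summed to 2285, 5056, 5492 and 3820 CPM in PyMT TAN mice 1 to 4 and to 4479, 5208, 3032 and 2619 CPM in PyMT-Cxcr2-/- TAN mice 1 to 4. In PyMT TANs, the lowest sum was in mouse 1, which had the highest Cxcl2 and Cxcl3. Among the PyMT-Cxcr2-/- TANs, the highest sum was in mouse 2, which had the lowest Cxcl1 and Cxcl2, and the next highest in mouse 1, which had the highest Cxcl1 and Cxcl3. The endothelial markers summed to 34.5, 26.1, 35.2 and 45.7 CPM in PyMT TAN mice 1 to 4, in the same order of mice as Cxcl1. In PyMT-Cxcr2-/- TAN mice 1 to 4 they summed to 28.4, 25.45, 23.8 and 25.8 CPM. That sum was highest in mouse 1, as Cxcl1 was, and lowest in mouse 3, whereas Cxcl1 was lowest in mouse 2. The highest mammary epithelial sum, 487 CPM, was in PyMT TAN mouse 4, which also had the highest Cxcl1 of its group. Among PyMT-Cxcr2-/- TANs, the highest epithelial sum, 350 CPM, was in mouse 2, which had the lowest Cxcl1. The part of these cells in the ligand levels was not tested.

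Ppbp, the precursor of the platelet chemokine Cxcl7, was the member that was higher in BM. BM neutrophils held 168, 82, 105 and 81 counts, or 5.04, 2.54, 3.01 and 2.27 CPM. PyMT TANs held 9, 8, 0 and 0 counts, at most 0.214 CPM, and PyMT-Cxcr2-/- TANs held 76, 38, 12 and 0 counts, or 1.43, 0.975, 0.248 and 0 CPM. The BM range did not overlap that of either TAN group. Ppbp fell by 4.86 on the log2 scale in PyMT TANs (SE 0.943, 95% interval -6.94 to -2.79, adjusted p = 0.001, edgeR), or 29.1-fold. In PyMT-Cxcr2-/- TANs it fell by 2.13 on the log2 scale (SE 0.773, 95% interval -3.83 to -0.423, adjusted p = 0.029, edgeR), or 4.37-fold, and this call was lost without PyMT-Cxcr2-/- mouse 2 (adjusted p = 0.059) or mouse 3 (0.065), without BM mouse 1 (0.08) or mouse 3 (0.056), and with DESeq2 (0.079).

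The platelet and megakaryocyte list was higher in BM as a sum, mainly through Itgb3, and moved in mixed directions gene by gene. Its 11 genes summed to 26.8 to 41.4, 39.6 to 47.4 and 117 to 184 CPM, and BM mouse 1 had both the highest sum and the highest Ppbp. Most of the BM sum was Itgb3, an integrin subunit also made by other cells. It was at 10.3 to 19.4, 16.6 to 26.2 and 94.9 to 151 CPM, so the direction of the sum rested mainly on this gene. Among the platelet receptor genes, Gp1ba was at 2.66 to 6.78, 3.87 to 5.49 and 9.47 to 14.1 CPM, whereas Gp9 was at 0.715 to 7.32, 2.31 to 7.66 and 0.805 to 2.52 CPM. Treml1, a defining platelet gene, was at 0 counts in all 12 libraries, and Gp1bb was at 0 in all PyMT TANs and at 0 to 14 counts in BM, although Gp1bb overlaps Sept5 on the same strand, so reads in both may not have been counted for it. Of the 8 genes of the list tested, 1 was higher and 2 lower in PyMT TANs, and in PyMT-Cxcr2-/- TANs the counts were 2 and 3. Over all genes tested, 30.1% and 34.4% were called higher and 23.2% and 25.1% lower. The part of platelets or megakaryocytes in the Ppbp values was not tested.

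**Figure D2:**
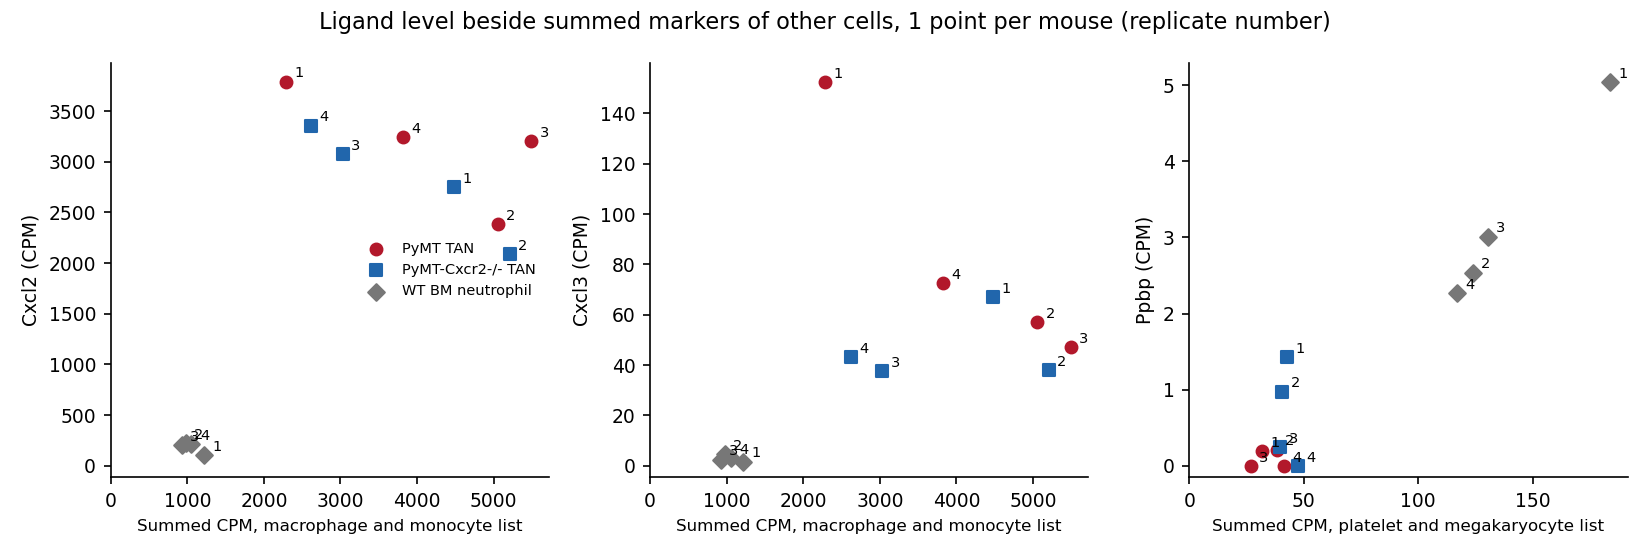
Levels of Cxcl2 and Cxcl3 (CPM) beside the summed CPM of macrophage and monocyte markers, and of Ppbp beside the summed CPM of platelet and megakaryocyte markers, with 1 point per mouse labelled by its replicate number. PyMT TAN mouse 1 has the highest Cxcl2 and Cxcl3 at a marker sum of 2285 CPM, the lowest of the TANs. BM mouse 1 has the highest Ppbp (5.04 CPM) and the highest platelet sum, most of it Itgb3.

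Cxcl5 was at the limit of detection in every group. PyMT TANs held 6, 0, 0 and 6 counts, PyMT-Cxcr2-/- TANs 2, 0, 0 and 0 counts, and BM neutrophils 2, 4, 6 and 2 counts. It was the only member that did not pass the filter on low counts, in all 3 comparisons, and no fold is given. By a two-sided exact permutation test of its CPM over the mice, the p for PyMT-Cxcr2-/- TANs against BM neutrophils was 0.0286, the smallest that 4 against 4 mice can give, PyMT TANs did not differ detectably from BM (p = 0.514), and neither did the 2 TAN groups (p = 0.429). The PyMT-Cxcr2-/- TAN and BM values met at 2 counts and were separated only once scaled by depth, and 6 of these 8 libraries were under the floor of 3 counts. In edgeR without the filter on low counts, this comparison was not called (log2 fold change -2.89, SE 1.6, adjusted p = 0.14). With 1 mouse left out, the exact permutation p, which counts differences at least as large in either direction, ran from 0.0286 to 0.0857 and was above 0.05 without any 1 PyMT-Cxcr2-/- mouse. Had the smaller tail been doubled, 3 against 4 mice could not have gone below 0.0571. A difference in Cxcl5 is thus not shown at this depth. Mammary epithelial markers, from cells that can make Cxcl5, summed to 51.0 CPM or more in every TAN library and to at most 0.516 CPM in BM. PyMT TAN mice 1 and 4, with 6 Cxcl5 counts each, had the lowest and highest sums of their group, 51.0 and 487 CPM. The part of epithelial cells in the Cxcl5 counts was not tested.

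No ligand passed the thresholds between PyMT-Cxcr2-/- and PyMT TANs, the comparison that asks what loss of Cxcr2 changes in tumor neutrophils. Of the 4 members tested, 0 were higher and 0 lower, against 1.38% and 0.596% of 18463 genes (1.98% in either direction). The groups overlapped in all 4, whereas 12% of genes did not overlap (6.34% with PyMT-Cxcr2-/- TANs higher). Cxcl2 differed least, by -0.17 on the log2 scale (SE 0.186, 95% interval -0.574 to 0.242, adjusted p = 0.78, edgeR). Cxcl1 had a log2 fold change of -0.88 (SE 0.298, 95% interval -1.53 to -0.226, unadjusted p = 0.013, adjusted p = 0.17, edgeR), with means of 25.6 ± 7.01 CPM without Cxcr2 and 46.9 ± 20.1 CPM with it (SD, n = 4). Its value was -0.57 without PyMT TAN mouse 4, the highest of its group. Cxcl3 had a log2 fold change of -0.83 (SE 0.342, 95% interval -1.58 to -0.0734, unadjusted p = 0.034, adjusted p = 0.28, edgeR), and -0.30 without PyMT TAN mouse 1. Ppbp had the widest interval, at a log2 fold change of 2.66 (SE 1.51, 95% interval -0.636 to 5.96, adjusted p = 0.46, edgeR), with 17 counts over the 4 PyMT TANs and 126 over the 4 PyMT-Cxcr2-/- TANs. These intervals leave room for changes of more than 1.5-fold in Cxcl1, Cxcl3 and Ppbp, and the lower bound for Cxcl2 lies just under that size.

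**Figure D3:**
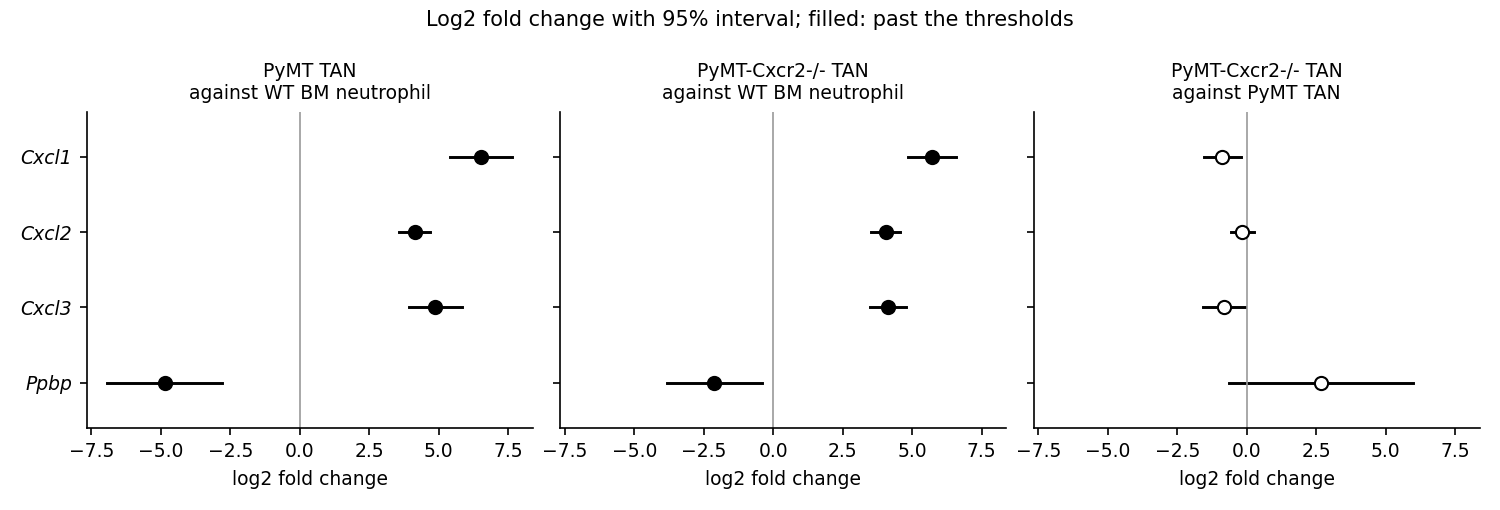
Log2 fold changes of the 4 ligands tested, with 95% intervals as bars, in the 3 comparisons, where filled symbols passed an adjusted p of 0.05 and 1.5-fold. Cxcl1 (6.53 and 5.72), Cxcl2 (4.14 and 4.04) and Cxcl3 (4.88 and 4.13) lie to the right and Ppbp (-4.86 and -2.13) to the left in TANs against BM, while all 4 symbols are open between the TANs.

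Per length of exon, Cxcl2 made up nearly all of the ligand transcripts. In RPKM, which scales reads by exon length and library size, its mean level was 1525 ± 280.2, 1363 ± 264 and 90.9 ± 25.8 (SD, n = 4). Its share of the summed RPKM of the 5 members was 96.3 to 97.6%, 97.2 to 98.4% and 90.9 to 97.1%. On this scale Cxcl1 followed in PyMT TANs at 25.0 ± 10.7 and Cxcl3 at 23.5 ± 13.7, and their ranges overlapped, as they did in PyMT-Cxcr2-/- TANs at 13.6 ± 3.74 and 13.3 ± 3.97. Ppbp and Cxcl5 came last in the TANs, with overlapping ranges. In BM neutrophils Ppbp ranked second at 2.97 ± 1.16, without overlap with Cxcl3 at 0.834 ± 0.350. Cxcl1 was next at 0.285 ± 0.192, its range overlapping that of Cxcl3, and Cxcl5 was lowest at 0.0553 ± 0.0298.

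The order of Cxcl1 and Cxcl3 depended on the length used. The exons of Cxcl3 span 3498 bases because 1 of its 2 annotated transcripts retains an intron, while its coding transcript has 1016 bases, and the same lengths are 1875 and 953 bases for Cxcl1. With the coding transcripts, a choice made after seeing the data, Cxcl3 was above Cxcl1 in both TANs, and in BM neutrophils Cxcl3 at 2.87 ± 1.21 RPKM overlapped Ppbp at 2.97 ± 1.16 RPKM, so the second place of Ppbp in BM also rested on the length. Cxcl2 stayed first, with a mean share of 93.0% in PyMT TANs and 95.3% in PyMT-Cxcr2-/- TANs.

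The balance among the 3 inducible ligands, which does not depend on the scaling of the libraries, is given as a description. There were 44.0 to 95.3 counts of Cxcl2 for each count of Cxcl1 in PyMT TANs and 81.2 to 128 in PyMT-Cxcr2-/- TANs, against 239 to 763 in BM neutrophils. The BM range lay above both TAN ranges, which overlapped each other. The count ratio of Cxcl2 to Cxcl3 ranged from 24.9 to 67.8, from 41.1 to 81.6 and from 48.5 to 84.2, and all 3 ranges overlapped. Hence Cxcl1 stood higher against Cxcl2 in TANs than in BM, and no such separation was seen for Cxcl3.

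Along the cluster, high and low genes were neighbors. Its 7 protein-coding genes, from Cxcl5 to Cxcl2, lie within 146.6 kb among 11 annotated genes. Pf4, the platelet chemokine next to Ppbp, which lacks the ELR motif, was at 3.55 ± 2.86, 5.04 ± 1.52 and 1.0 ± 0.480 CPM (SD, n = 4). It was higher in both TANs (log2 fold change 1.90, SE 0.731, adjusted p = 0.044 and log2 fold change 2.46, SE 0.370, adjusted p = 5.0e-05, edgeR), opposite in sign to Ppbp, although both are known from platelet granules. Cxcl15, a lung epithelial chemokine between Cxcl3 and Cxcl1, was at no more than 1.22 CPM in any library. The highest 3 of the 7 genes in TANs were the inducible ligands, at 26.7, 132 and 144.5 kb from the start of Cxcl5.

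**Figure D4:**
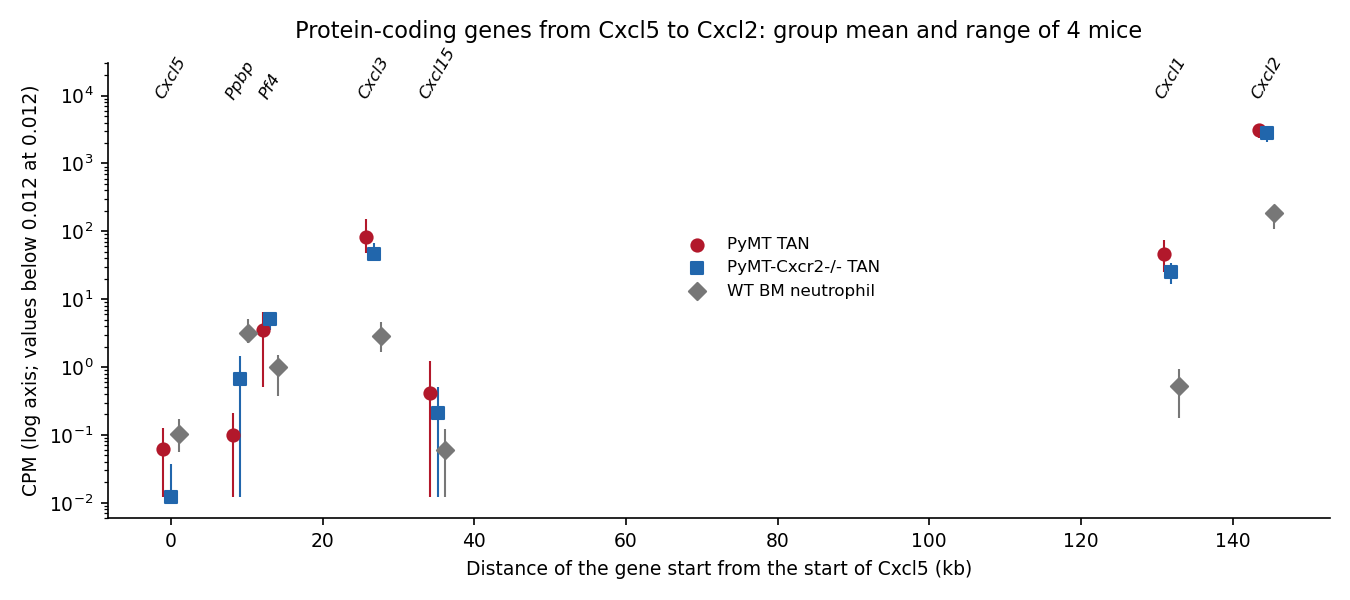
Mean CPM (symbols) and range over 4 mice (bars) on a log axis for the 7 protein-coding genes of the cluster, placed by the distance of each gene start from that of Cxcl5 in kb, with groups shifted sideways by 1 kb. Cxcl3, Cxcl1 and Cxcl2 are above BM in both TANs, while Ppbp at 9.16 kb is highest in BM. The mean of Pf4 is above BM in both TANs, but its range in PyMT TANs overlaps that of BM.

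Some genes outside the family had profiles like those of the ligands over the 12 libraries. Likeness was the root mean square difference of log2 CPM after centring each gene, over 12 libraries and 19212 genes, and a small value means a like profile. The measure keeps the step between TANs and BM, so a like fold change counts as likeness. Ccrl2, which encodes an atypical chemokine receptor, was closest to Cxcl2 at 0.220, with 2779.8 ± 225, 2318 ± 511 and 192 ± 31.5 CPM. The unnamed gene AC119228.1 at 0.253 and Maff, a small Maf transcription factor, at 0.267 came next. Closest to Cxcl1 were the transcription factor genes Prdm1 at 0.527 and Nr4a2 at 0.575 and the G protein regulator gene Rgs1 at 0.587. For Cxcl3 they were F10, the gene of coagulation factor X, at 0.377, Gm44851 at 0.413 and the cytokine gene Mif at 0.415. Cxcl2 ranked 9 among the genes most like Cxcl3, at 0.496, and Cxcl3 ranked 57 for Cxcl2. Cxcl1 was further off, at rank 670 for Cxcl3 and 1937 for Cxcl2. Among the genes most like Cxcl1, Cxcl3 ranked 211 and Cxcl2 336. For Ppbp, the closest genes, Styk1 at 1.04, Gm34908 at 1.05 and Gm47439 at 1.18, were less alike than those of the other members. Ppbp held only 0 to 9 counts in PyMT TANs and 0 to 76 in PyMT-Cxcr2-/- TANs, so counting error enters these differences. Cxcl5 had too few counts for such a profile.

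Genes of the pathway around the ligands are given from fixed lists, starting with the receptors. Cxcr1, the other receptor for ELR chemokines, was at 26.7 ± 8.67, 13.1 ± 2.70 and 6.73 ± 0.848 CPM (SD, n = 4). It was 4.15-fold higher in PyMT TANs than in BM (log2 fold change 2.05, SE 0.233, adjusted p = 2.2e-05, edgeR) and 2.14-fold higher in PyMT-Cxcr2-/- TANs (log2 fold change 1.10, SE 0.179, adjusted p = 1.0e-04, edgeR), and it missed the threshold between the TANs (log2 fold change -1.03, SE 0.242, adjusted p = 0.057, edgeR). Cxcr2 was lower in PyMT TANs than in BM (log2 fold change -0.70, SE 0.147, adjusted p = 0.0017, edgeR). Ackr1, a scavenger of chemokines, was at 0 to 4 counts in each library.

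More than 9 of 18 signaling genes downstream of Cxcr2 were lower in TANs than in BM. Of 18 tested, 0 were higher and 13 lower in PyMT TANs, beside 23.2% of all genes called lower, with a median log2 fold change of -1.12 against 0.0872 over all genes tested. In PyMT-Cxcr2-/- TANs, 0 were higher and 10 lower, beside 25.1% of all genes, with a median of -0.622 against 0.0863. Examples in PyMT TANs are the beta-arrestin gene Arrb2 at -1.98, the receptor kinase gene Grk6 at -1.88 and Rac2, a GTPase of neutrophil migration, at -1.83. Between the TANs, Gng2, a G protein gamma subunit, was higher without Cxcr2 (log2 fold change 0.86, SE 0.149, adjusted p = 0.018, edgeR), and the other 17 did not pass the thresholds. In that comparison 1.38% of all genes were called higher.

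Cytokines that induce the ligands, with their receptors, form the next list. Of 13 tested, 8 were higher and 1 lower in PyMT TANs, and for PyMT-Cxcr2-/- TANs the counts were 9 and 0, beside 30.1% and 34.4% of all genes called higher and 23.2% and 25.1% called lower. Those higher in both included Il1r2, a decoy receptor, and Il1rn, the interleukin-1 receptor antagonist, which oppose interleukin-1. Il1b, the gene of interleukin-1 beta, rose by 3.49 and 3.48 on the log2 scale, and Il1a by 7.67 and 6.35. Between the TANs, 2 of the 13 passed the thresholds and both were lower without Cxcr2, beside 0.596% of all genes called lower. Tnf, the gene of tumor necrosis factor, was at 123, 140.2, 231 and 126 CPM in PyMT TANs. Without Cxcr2 it was at 65.7, 43.0, 68.3 and 84.2 CPM. The groups did not overlap, as held for 12% of all genes tested (log2 fold change -1.25, SE 0.244, adjusted p = 0.026, edgeR). Il1a was at 80.96 to 139 CPM and 28.4 to 56.2 CPM in the same groups (log2 fold change -1.39, SE 0.229, adjusted p = 0.015, edgeR).

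Of the 11 NF-kappaB subunits and feedback regulators, 9 were higher and 0 lower in PyMT TANs, and 10 and 0 in PyMT-Cxcr2-/- TANs, beside 30.1% and 34.4% of all genes called higher, with medians of 2.08 and 2.34 on the log2 scale. The feedback genes Tnfaip3, which encodes A20, and Nfkbia, which encodes the inhibitor IkBa, were among them, at log2 fold changes of 5.15 and 3.52 in PyMT TANs and 5.31 and 3.48 in PyMT-Cxcr2-/- TANs. Between the TANs, Bcl3 was higher without Cxcr2 (log2 fold change 0.86, SE 0.151, adjusted p = 0.019, edgeR), and 10 did not pass. In that comparison 1.38% of all genes were called higher. The macrophage markers described above were also higher in both TANs than in BM, and their part in these lists was not tested.

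Factors that decide how long such transcripts last, are given as the AU-rich element and decay genes. Of 7 tested, 2 were higher and 0 lower in PyMT TANs, 3 and 1 in PyMT-Cxcr2-/- TANs, shares near the 30.1% and 34.4% of all genes called higher. None passed between the TANs, beside 1.98% of all genes, with adjusted p from 0.27 to 0.99 in edgeR. Zfp36l1, a relative of tristetraprolin, had the largest change of the list (log2 fold change 3.71 and 3.74). The regulatory RNase gene Zc3h12a was higher in both TANs (log2 fold change 1.30 and 1.76). Zfp36, which encodes tristetraprolin, a factor that speeds the decay of transcripts with AU-rich elements, was higher in PyMT-Cxcr2-/- TANs (log2 fold change 1.0, SE 0.161, adjusted p = 9.1e-05, edgeR) and at 0.46 in PyMT TANs, short of the fold threshold.

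Proteases that can cleave ELR chemokines were also listed. Of 7 tested, 1 was higher and 5 were lower in PyMT TANs, and in PyMT-Cxcr2-/- TANs the counts were 2 and 5. Of all genes, 30.1% and 34.4% were called higher and 23.2% and 25.1% lower. Elane, neutrophil elastase, was at 7.40 to 17.3 CPM in BM and at most 1.01 CPM in the TANs. Mmp8, neutrophil collagenase, was at 237 ± 82.0, 835 ± 247 and 4909 ± 375 CPM (SD, n = 4), and it was the 1 of 5 tested that differed between the TANs (log2 fold change 1.81, SE 0.268, adjusted p = 0.011, edgeR). By the same thresholds 1.98% of all genes differed between the TANs. Mmp12, macrophage elastase, was at 39.6 to 145 CPM and 43.2 to 103 CPM in the TANs and at 0 counts in all 4 BM libraries.

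Other CXC chemokines were higher in TANs as well. Of 6 tested against BM, 5 were higher and 0 lower in both TANs, namely Pf4, Cxcl9, Cxcl10, Cxcl14 and Cxcl16. Beside them, 30.1% and 34.4% of all genes were called higher. Cxcl16, a transmembrane chemokine for Cxcr6, was at 48.8 to 95.7 CPM, 53.5 to 115 CPM and 0.279 to 0.660 CPM. Cxcl10, an interferon-induced ligand of Cxcr3, was at 12.7 to 21.7 CPM, 6.59 to 9.91 CPM and 0.561 to 0.836 CPM. Its TAN groups did not overlap, a separation shared by 12% of all genes tested between the TANs, yet it missed the threshold (log2 fold change -0.93, SE 0.228, adjusted p = 0.064, edgeR). None of the 8 tested passed between the TANs, beside 1.98% of all genes, and their adjusted p ranged from 0.064 to 0.99 in edgeR.

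**Figure D5:**
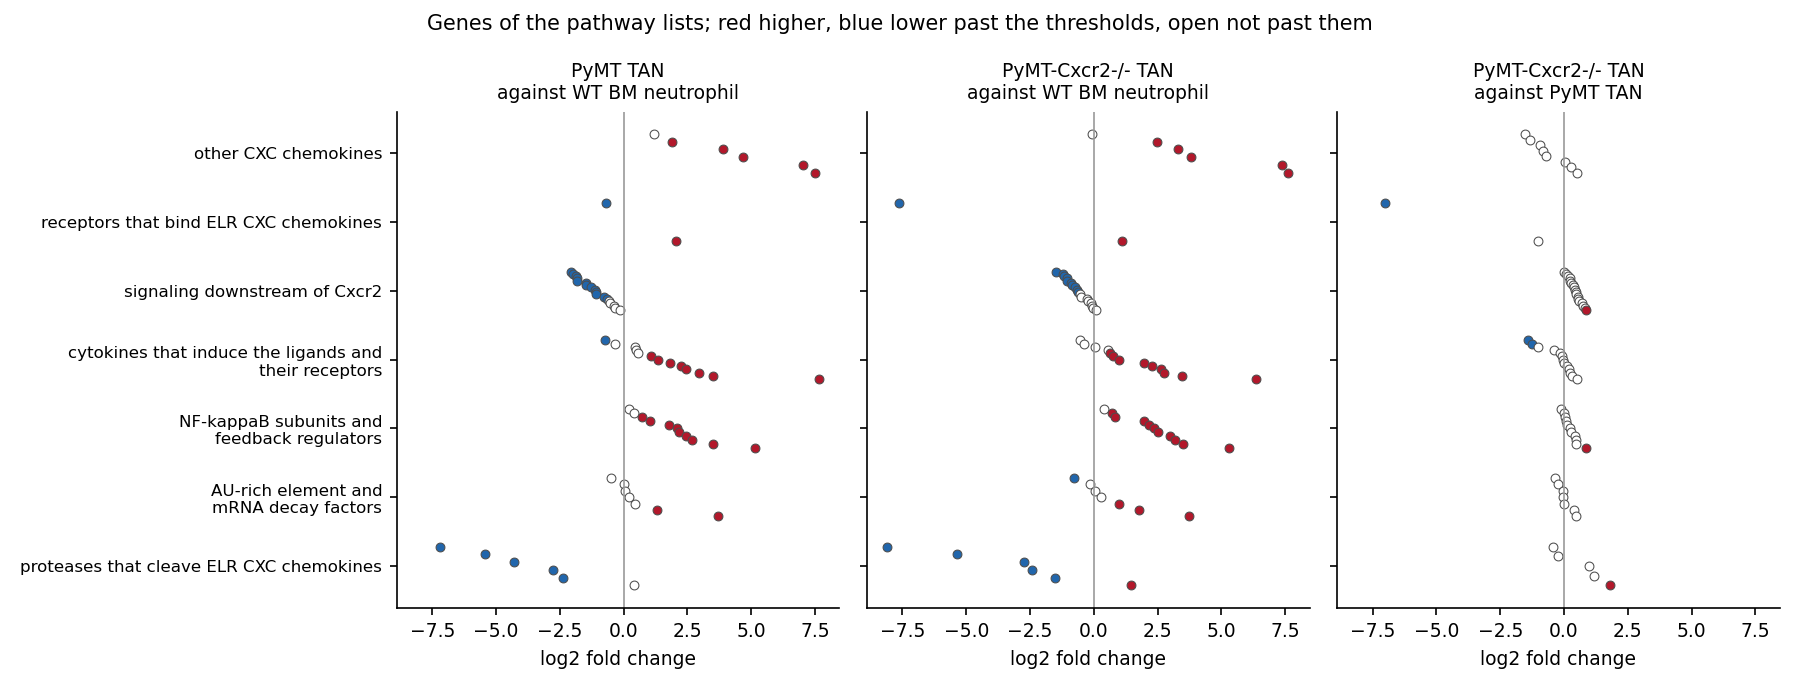
Log2 fold changes of the genes in 7 pathway lists for the 3 comparisons, 1 point per gene tested, red where higher and blue where lower past the thresholds and open where not, without genes that are at 0 counts throughout 1 of the groups compared. Against BM, NF-kappaB genes (9 and 10 of 11 higher) lie to the right and signaling genes (13 and 10 of 18 lower) to the left, and most points are open between the TANs.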

How the data were processed

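RNA of sorted neutrophils of 12 mice was analysed. The authors depleted ribosomal RNA, made directional libraries, sequenced paired-end reads, used STAR for alignment to mm10 and HTSeq for counting. What they deposited were raw counts, which are not normalized. Strand setting and annotation release are not given in the sources used here. Counts not assigned to a gene, 46.3 to 60.5% of each library, were left out. Of 55335 identifiers, 55154 matched GENCODE M21. In R 4.3.3, edgeR 4.0.16 was fitted to each pair of groups with TMM, filterByExpr and robust quasi-likelihood tests, with Benjamini-Hochberg adjustment over all genes tested and thresholds of 0.05 and 1.5-fold. Intervals are 95% and use the fit's degrees of freedom. A member below the filter had an exact permutation test. CPM used TMM factors over 12 libraries. The fits were tested on simulated data. limma 3.58.1 and DESeq2 1.42.0 served as alternatives.

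The members and lists, and the search for shared promoter stretches, were chosen with earlier results of these data known. Named are the members, Cxcr2, genes of the lists and, for each member, the 3 genes with the most similar profile. Replicates were separate mice and differed beyond sampling noise (chi-square per degree of freedom 22.6 to 134 over 18 pairs). Counting intervals and floors cover counting error only.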

Additional observations from a re-analysis of the deposited data

Results flagged for a closer look

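Of 15 groups of 4 mice, 5 members in 3 groups, 2 held a mouse whose distance from the nearest other, over the range of the group, was above Dixon's critical value of 0.829, where chance flags about 1 group in 20. The Cxcl2 level of WT BM mouse 1 was 108.4 CPM, below the 207 to 222 CPM of the other three, with a gap of 0.87 of the range. The Cxcl5 level of PyMT-Cxcr2-/- TAN mouse 1 was 0.0377 CPM, from 2 counts, while the other three had 0 counts, a gap of 1 by construction. The Cxcl2 calls in TANs against BM held without BM mouse 1.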

How the results depend on the processing

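Cxcl1, Cxcl2 and Cxcl3 in both TANs against BM neutrophils and Ppbp in PyMT TANs kept their calls under 14 alternatives (other size factors, filters, tools, fits and thresholds) and without each of 8 mice. With 1 mouse left out, log2 fold changes ran from 6.20 to 6.87, 3.90 to 4.24, 4.40 to 5.13 and -5.42 to -4.42 for Cxcl1, Cxcl2, Cxcl3 and Ppbp in PyMT TANs, and from 5.42 to 6.10, 3.83 to 4.18 and 3.92 to 4.42 for the first 3 in PyMT-Cxcr2-/- TANs. Ppbp in PyMT-Cxcr2-/- TANs lost its call with library totals (log2 fold change -1.88, adjusted p = 0.062, edgeR), without a filter (-2.13, 0.13), with DESeq2 (-2.14, 0.079), with all 12 libraries in 1 edgeR fit (-2.27, 0.067) and at an adjusted p of 0.01 (-2.13), so that 0 members were lower, and its value ran from -2.84 to -1.71 with 1 mouse left out, for 0 to 1 members lower. Between the TANs no member passed under any setting; Ppbp was tested in 13 alternatives and 4 of 8 fits with 1 mouse left out. The Cxcl5 difference between PyMT-Cxcr2-/- TANs and BM ran from -0.109 to -0.0705 CPM with 1 mouse left out, with an exact permutation p of 0.0286 to 0.0857, and edgeR without a filter gave a log2 fold change of -2.89 (adjusted p = 0.14).

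Counts over all genes moved more. With library totals, 6674 genes were higher and 2488 lower in PyMT TANs against BM, beside 5160 and 3988 with TMM, and the median of all genes was 0.529, beside 0.0872 (0.266, beside 0.0863, for PyMT-Cxcr2-/- TANs against BM); between the TANs 206 were higher and 391 lower, beside 255 and 110. With GC content and length trends removed, 7305 genes were lower in PyMT-Cxcr2-/- TANs against BM, beside 4444, with a median of -0.399, and with the replicate block added 7283. Between the TANs, genes higher numbered 471 without a filter, 684 with DESeq2, 579 in 1 fit of 12, 39 without GC and length trends, 10 at an adjusted p of 0.01 and 156 at 2-fold, and 10 to 427 with 1 mouse left out (10 without PyMT TAN mouse 2). Genes lower numbered 300, 307, 37, 9 and 59 under DESeq2, the fit of 12, the trends, 0.01 and 2-fold, and 13 to 100 with 1 mouse left out. The cause was not tested.

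Groups share replicate numbers but come from different mice. Deviations of same-numbered libraries correlated at -0.205 to 0.0841 (mean -0.0416, across genes). Those of other-numbered libraries of different groups correlated at -0.334 to 0.31 (mean 0.0141). No pairing by number was thus seen, in groups of only 4 mice. A replicate block left 4 genes higher and 9 lower between the TANs (12 and 19 with GC and length trends also removed) and changed no call of a member.

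With coding transcripts as the length, added after seeing the data, Cxcl1 minus Cxcl3 went from 1.51 to -31.7 RPKM in PyMT TANs and from 0.35 to -18.9 in PyMT-Cxcr2-/- TANs. Depth limits statements on Cxcl5 and, in TANs, on Ppbp.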
